A study of Oryctolagus cuniculus with 16 samples.

Results

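A block of 4 neighbouring genes on rabbit chromosome 12 is described here across sorted microglia and oligodendrocyte progenitor cells (OPC). Its members are 4 of the 23669 genes in each deposited file, and they were picked by chromosome, first position and strand. The files carry Ensembl identifiers and positions without gene symbols. The 4 genes were proposed as TAP2, PSMB8, TAP1 and PSMB9 because their order, strands and spacing fit that block of genes, and after results of these libraries were known; which values drew attention to them is not recorded. They are therefore called the TAP2-, PSMB8-, TAP1- and PSMB9-position genes, and their levels, their co-variation and their treatment differences are given as descriptions with standard deviations (SD) or standard errors (SE), not as tests.

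TAP1 and TAP2 together form the transporter that carries peptides from the cytosol into the endoplasmic reticulum, where they are loaded on MHC class I molecules. PSMB8 and PSMB9 are catalytic subunits that replace their constitutive counterparts in the immunoproteasome, the form of the proteasome that trims proteins for this pathway. In human and mouse the 4 genes lie together in the MHC class II region, interferon-gamma induces them, and TAP1 and PSMB9 are transcribed away from each other from a shared promoter region. In brain, microglia are the cells best known for this machinery, and OPC can take it up under inflammation.

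All animals were premature New Zealand rabbit kits with moderate-to-severe intraventricular haemorrhage, bleeding into the fluid spaces of the brain. An adenovirus was given into the ventricle. In the Ad-PPARg groups it carried PPARg and GFP, a fluorescent reporter, and in the Ad-GFP groups, the vector controls, it carried the reporter only; the labels give a CMV promoter, which does not confine expression to 1 cell type, and do not say which cells took up virus. At day 7, CD11b-positive cells with low CD45 (microglia) and O4-positive cells (OPC) were sorted from the cerebral hemispheres, and 4 Ad-PPARg and 4 Ad-GFP libraries were made from each sort, 16 in all. They came from 10 animals, 6 of which gave both sorts. No group without haemorrhage or without virus was analysed here, and the sorts could not be checked against named markers because the files hold no symbols.

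Totals on genes were 6.24 to 17.6 M (1e+06) counts in microglia and 6.56 to 15.8 M in OPC, which gave the 4 genes 391 to 2892 counts per microglia library and 32 to 1139 per OPC library. One OPC library, Ad-PPARg replicate 4, stood apart, with a median Spearman correlation of 0.941 to the other OPC libraries, whose own medians were 0.971 to 0.987. Animal identifiers begin with 1 of 6 codes, and no code spans both treatments; the labels do not say what the code stands for, and code and treatment cannot be told apart. Levels are in CPM, counts scaled to a library total of 1e+06, with totals adjusted by TMM (a scaling that sets the typical gene equal between libraries) over all 16 libraries. In bulk samples such as these, fewer cells of a type and less RNA per cell cannot be told apart.

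The TAP2-position gene (ENSOCUG00000002489) lies at chr12:23346548-23354606 on the minus strand, with 11 annotated exon entries. The PSMB8-position gene (ENSOCUG00000002131) follows at chr12:23356122-23360458, minus strand, with 6 exon entries. The TAP1-position gene (ENSOCUG00000002135) is at chr12:23361824-23371112, minus strand, with 11 exon entries. The PSMB9-position gene (ENSOCUG00000002139) is at chr12:23371247-23379513, plus strand, with 6 exon entries. Coordinates are those of the deposited files, whose genome build is not given in the sources used here. Only 134 bases separate the annotated first exons of the TAP1- and PSMB9-position genes, which point away from each other, against 1365 bases between the PSMB8- and TAP1-position genes and 1515 bases between the TAP2- and PSMB8-position genes.

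**Figure D1:**
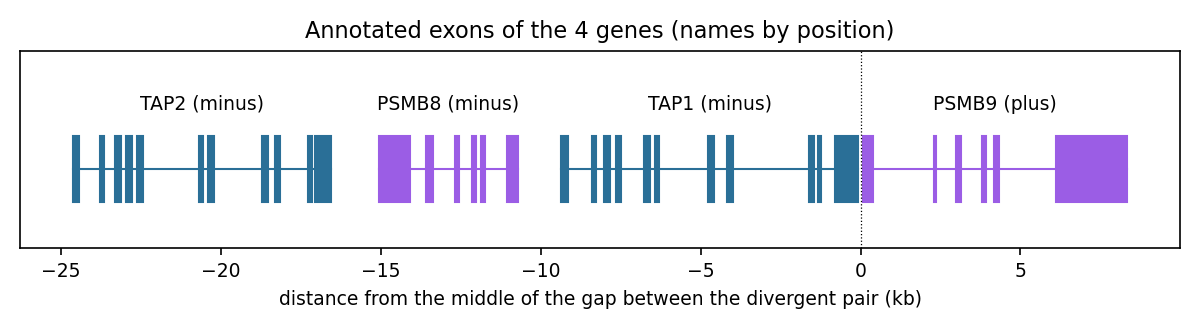
Annotated exons (boxes) of the 4 genes, with distance in kb from the middle of the 134-base gap between the divergent pair on the x axis; the y axis has no unit. The 3 minus-strand genes lie to the left and the plus-strand gene to the right, with the transporter-position genes in blue and the proteasome-position genes in purple.

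The exon structure, which the choice of genes did not use, set the TAP-position genes together. Of their 9 internal exons, read in the direction of transcription, 8 had the same length in the TAP1- and TAP2-position genes, and the other pair, of 163 and 160 bases, differed by a multiple of 3. A run of 7 successive internal exons of the same lengths was found in 3 of 23669 genes, these 2 and 1 on an unplaced scaffold. The PSMB8- and PSMB9-position genes shared 1 of 4 internal exon lengths. In the RefSeq table for the rabbit assembly mOryCun1.1, a different build to which 0 of the files' identifiers matched, PSMB9, TAP1, PSMB8 and TAP2 follow one another with no other listed gene between them, and the gene beyond PSMB9 is RLA-DMB, a rabbit MHC class II gene.

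All 4 genes were measured well above the filter on low counts in both sorts, and all were higher in microglia. The transporter-position genes were about equally reduced in OPC, and the proteasome-position genes much more so. Over the 8 libraries of each sort, the TAP1-position gene was at 155 ± 45.8 CPM in microglia (SD, range 76.4 to 238, median 156) and at 47.3 ± 14.0 CPM in OPC (range 33.6 to 67.8, median 43.4). The TAP2-position gene was at 82.6 ± 25.6 CPM in microglia (41.0 to 133, median 82.2) and at 25.3 ± 11.6 CPM in OPC (14.1 to 41.5, median 20.7). On this TMM scale the sorts did not overlap for the TAP1-position gene. For the TAP2-position gene the highest OPC library was just above the lowest microglia library. With totals not adjusted by TMM, both genes overlapped more. OPC Ad-PPARg replicates 1 to 3 were then at 79.8, 88.5 and 65.9 CPM in the TAP1-position gene, above microglia Ad-GFP replicate 1 at 59.1 CPM. In the TAP2-position gene the same libraries were at 47.6, 56.2 and 40.8 CPM, against 31.7 CPM.

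The PSMB8-position gene was at 133 ± 41.6 CPM in microglia (76.4 to 186, median 130) and at 5.05 ± 2.15 CPM in OPC (2.81 to 9.25, median 4.46). The PSMB9-position gene was at 94.4 ± 32.1 CPM in microglia (37.5 to 136, median 90.1) and at 8.62 ± 3.21 CPM in OPC (5.24 to 13.96, median 7.33). Neither overlapped between the sorts, with or without TMM. On the TMM scale, all OPC below all microglia libraries was found for 3 of the 4 genes, and for 20.3% of the genes tested. The OPC level was thus 30.6% of the microglial level for the TAP2-position gene, 30.5% for the TAP1-position gene, 9.13% for the PSMB9-position gene and 3.81% for the PSMB8-position gene. These percentages depend on TMM, whose factors were 0.766 to 0.993 in microglia and 1.01 to 1.35 in OPC. On unadjusted totals they would be higher. The TAP1-position means were then 108 (Ad-GFP) and 154 CPM (Ad-PPARg) in microglia, and 47.0 and 67.5 CPM in OPC.

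In edgeR's quasi-likelihood fit of all 16 libraries, the log2 difference of OPC against microglia was -1.76 (SE 0.22) for the TAP2-position gene and -1.72 (SE 0.18) for the TAP1-position gene. It was -4.78 (SE 0.23) for the PSMB8-position gene and -3.49 (SE 0.25) for the PSMB9-position gene, so that the differences of the proteasome-position genes were the larger, by several SE. All 4 genes were called lower in OPC at an adjusted p under 0.05, as were 33.4% of the 14699 genes tested. A difference at least as low as that of the PSMB8-position gene was found in 3.90% of all genes tested, against 6.63% for the PSMB9-position gene, 13.9% for the TAP2-position gene and 14.1% for the TAP1-position gene. With the animal as a block in the 6 animals with both sorts, the 4 genes were called lower as well.

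**Figure D2:**
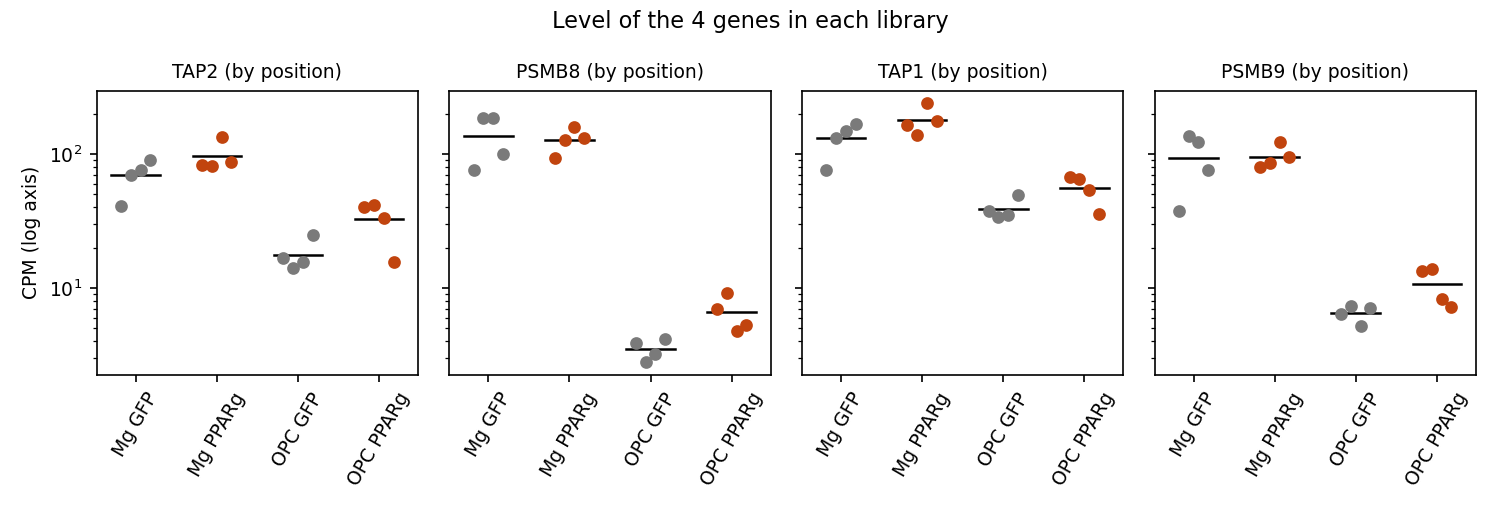
CPM of each gene (log y axis) in the 16 libraries, in columns for microglia (Mg) and OPC by treatment; points are libraries and bars are the means of 4. The PSMB8-position gene falls from 76.4 to 186 CPM in microglia to 2.81 to 9.25 CPM in OPC, a wider gap than for the TAP1-position gene.

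The order of the genes per length differed between the sorts. In microglia the PSMB8-position gene had 70.7 ± 22.2 CPM per kb of annotated exon (SD, n = 8) and the TAP1-position gene 64.9 ± 19.1, and each was the higher of the 2 in 4 of 8 libraries, so these neighbours in the order did not differ beyond their spread. The TAP2-position gene followed with 39.1 ± 12.1 CPM per kb and the PSMB9-position gene with 31.4 ± 10.7, the former higher in 6 of 8 libraries. In OPC the TAP1-position gene was first at 19.8 ± 5.85 CPM per kb and the TAP2-position gene second at 11.9 ± 5.49, in that order in all 8 libraries. The PSMB9-position gene (2.86 ± 1.07 CPM per kb) and the PSMB8-position gene (2.69 ± 1.14) were lowest, with the PSMB9-position gene higher in 6 of 8. The PSMB8-position gene thus went from first or second place in microglia to the lowest mean in OPC. These values rest on the annotated lengths of 1875 to 3010 bases, in which the last exon of the PSMB9-position gene is unusually long.

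Count ratios within a library, which need no scaling, showed how tightly the genes kept to each other. The TAP2-position gene had 0.492 to 0.597 counts per count of the TAP1-position gene over the 8 microglia libraries, a coefficient of variation of 6.23%. The PSMB8-position gene had 0.569 to 1.41 counts per count of the TAP1-position gene in the same libraries, a coefficient of variation of 34.5%, and the PSMB9-position gene 0.452 to 1.03 (32.9%). Between themselves the proteasome-position genes varied less, with 0.491 to 0.858 counts of the PSMB9-position gene per count of the PSMB8-position gene (15.0%). In OPC this last ratio was 1.38 to 2.63, above every microglia library, and the PSMB8-position gene had only 0.0835 to 0.149 counts per count of the TAP1-position gene. The ratios did not follow the families in OPC. Their coefficients of variation were 17.5% (TAP2 per TAP1), 16.9% (PSMB9 per TAP1), 21.5% (PSMB9 per PSMB8) and 24.3% (PSMB8 per TAP1).

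In microglia the 4 genes moved across animals as 2 pairs, and the pairs followed gene family, not position. The TAP1- and TAP2-position genes correlated with a Pearson r of 0.98 over the 8 microglia libraries (Spearman rho 0.90), and with 0.88 over the 6 left after taking out the 2 farthest from the median. The PSMB8- and PSMB9-position genes correlated with r = 0.93 (rho 0.90), and with 0.90 without the 2 farthest. The divergent TAP1- and PSMB9-position genes, only 134 bases apart, had r = 0.69 (rho 0.33), which became -0.58 without the 2 farthest. The other 3 pairs across the families had r of 0.42 to 0.67 and rho of -0.048 to 0.095. Without the 2 farthest, their r was -0.94 (TAP2 and PSMB8), -0.85 (TAP2 and PSMB9) and -0.025 (PSMB8 and TAP1). All 4 cross-family correlations rested on Ad-GFP replicate 1, the microglia library with the lowest level of every one of the 4 genes: without it they were -0.28 to -0.061, while the within-family values stayed at 0.91 or above without any single library. These are descriptions over libraries that share a scaling, with 2 pairs of animals under a shared code.

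The same correlations can be placed among those with all other genes, as a description only: the 4 genes were chosen with results of these libraries known, so their ranks support nothing. Of 13040 other genes tested in microglia, the TAP1-position gene was the single most like the TAP2-position gene over the 8 libraries, and the TAP2-position gene ranked 2 for the TAP1-position gene. The PSMB9-position gene ranked 23 for the PSMB8-position gene, and the PSMB8-position gene 166 for the PSMB9-position gene. Across the divergent gap, the PSMB9-position gene ranked 1556 for the TAP1-position gene, and the TAP1-position gene ranked 1169 for the PSMB9-position gene. With the treatment means taken out first, the TAP1-position gene ranked 5 for the TAP2-position gene and the TAP2-position gene 8 for the TAP1-position gene. The PSMB9-position gene then ranked 60 for the PSMB8-position gene, and the PSMB8-position gene 189 for the PSMB9-position gene.

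The libraries that set the families apart were the Ad-GFP replicates 2 and 3, from 2 animals under a shared code. They held the highest levels of the PSMB8-position gene (186 and 185 CPM) and the PSMB9-position gene (136 and 124 CPM) among the microglia libraries, and lay within the range of the other libraries in the TAP1-position gene (132 and 148 CPM). Ad-PPARg replicate 3 was highest in both transporter-position genes, at 238 and 133 CPM. RNA of the other sort was gauged too. Genes at least 16-fold higher in OPC (742, chosen on these same libraries) reached 1.16 to 5.12% of their OPC level in the microglia libraries. At the highest of these shares the OPC level of the TAP1-position gene would contribute 2.42 CPM. The choice of at least 16-fold keeps the shares at or below about 6.25% by construction, which caps this figure too. Those shares were nevertheless lowest in Ad-GFP replicate 1 and highest in Ad-PPARg replicate 3, the libraries with the lowest and the highest TAP1-position level, and the part of this in the co-variation was not tested.

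**Figure D3:**
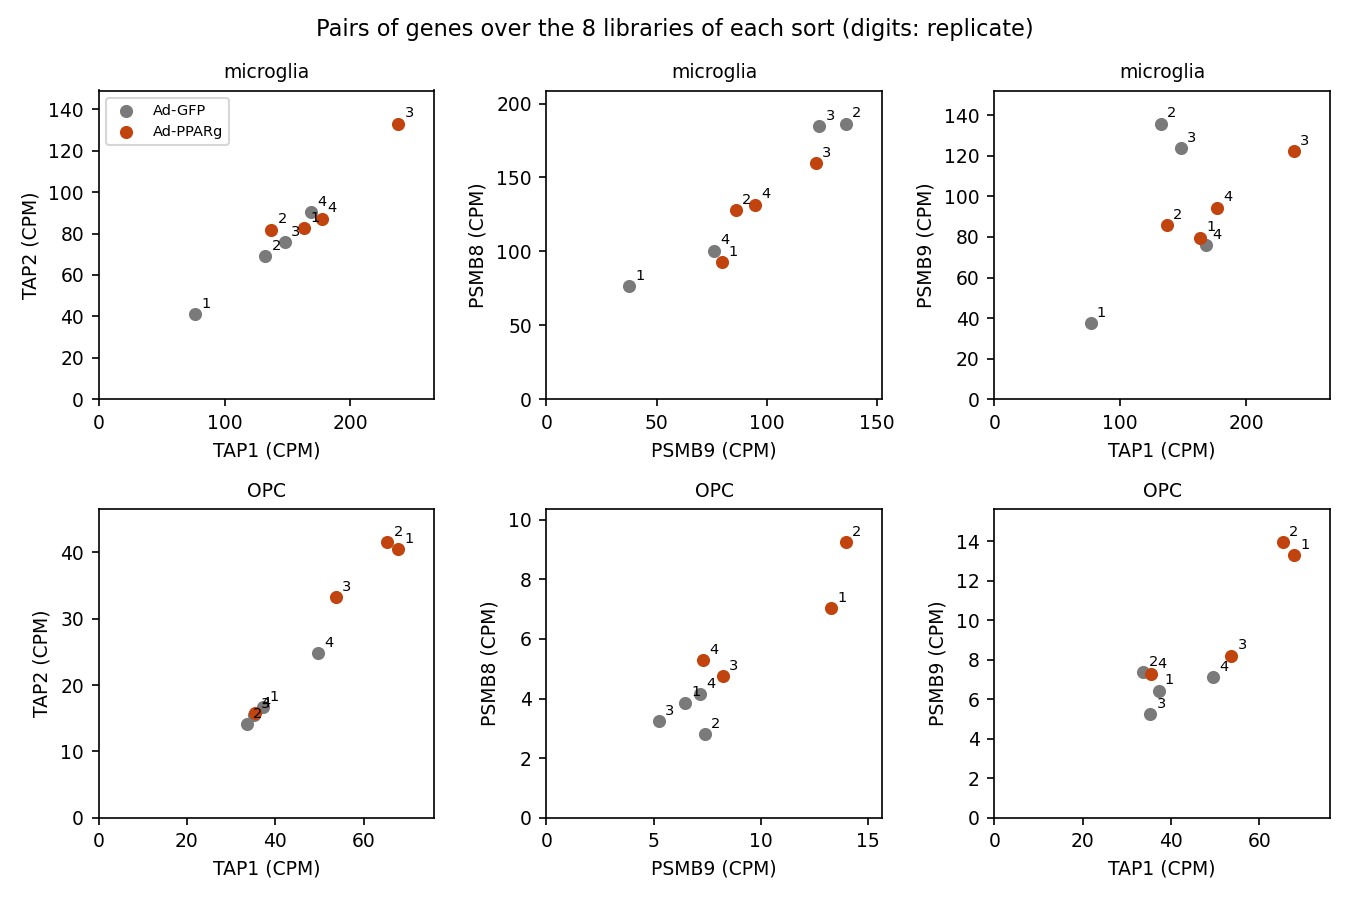
Levels of 3 pairs of genes in CPM (both axes linear, from 0) over the 8 microglia libraries (top) and the 8 OPC libraries (bottom), coloured by treatment, with replicate numbers. The same-family pairs lie along a line in microglia (r = 0.98 and 0.93), while in the divergent pair Ad-GFP replicates 2 and 3 lie above the others.

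In OPC the correlations across the families were numerically higher than in microglia, a difference that was not tested. The TAP1- and TAP2-position genes had r = 0.99 (Spearman rho 1.00) over the 8 OPC libraries and were each other's most like gene among 13491 others. The PSMB8- and PSMB9-position genes had r = 0.88 (rho 0.71), and the 4 pairs across the families r of 0.84 to 0.87 (rho 0.60 to 0.74). Without the 2 libraries farthest from the median, the TAP pair stayed at 0.99 and the other 5 pairs were at 0.37 to 0.54, so that these rest on the libraries left out. With the treatment means taken out, the TAP pair again had r = 0.99 and the other 5 pairs 0.68 to 0.79. The PSMB8-position gene then ranked 2914 for the TAP2-position gene, from 107 before, and the PSMB9-position gene 1603 for the TAP1-position gene, from 65. In the other direction the ranks of both pairs fell much less. The TAP1-position gene, for example, ranked 202 for the PSMB9-position gene, from 47 before. Within the families, the PSMB9-position gene ranked 84 for the PSMB8-position gene, from 11 before, and the TAP1-position gene 2 for the TAP2-position gene. The PSMB8-position gene ranked 368 for the PSMB9-position gene, from 37 before, and so came behind the TAP1-position gene.

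By the rule for like genes, the 4 genes with the highest r to the mean of the block over the 8 microglia libraries were taken from 10166 genes with at least 5 CPM. They were ENSOCUG00000000236 (r = 0.99), ENSOCUG00000011944 (0.98), ENSOCUG00000014857 (0.98) and ENSOCUG00000009699 (0.98), which the files leave unnamed and which lie on other chromosomes or scaffolds. All 4 were higher in OPC than in microglia, for example 319 ± 48.0 against 29.5 ± 12.4 CPM (SD, n = 8 each) for ENSOCUG00000009699. Over the 8 OPC libraries their r to the block was 0.36, -0.62, 0.59 and 0.51. An r of at least 0.9 to the block mean was reached by 318 of 13037 genes in microglia and by 29 of 13488 in OPC.

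The first treatment comparison asks what Ad-PPARg did in microglia. The transporter-position genes had somewhat higher mean levels after Ad-PPARg, the PSMB9-position gene had nearly equal means (95.5 and 93.3 CPM) and the PSMB8-position gene a lower one (128 against 137 CPM). Every one of the 4 genes overlapped between the treatments, as did all but 3.31% of the genes tested. The TAP1-position gene was at 163, 137, 238 and 177 CPM after Ad-PPARg and at 76.4, 132, 148 and 168 CPM after Ad-GFP. The treatments overlapped, with 1 high Ad-PPARg and 1 low Ad-GFP library at the ends. The TAP2-position gene was at 82.6, 81.9, 133 and 87.2 CPM after Ad-PPARg and at 41.0, 69.0, 75.8 and 90.5 CPM after Ad-GFP. Again Ad-GFP replicate 4 lay within the Ad-PPARg range.

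The PSMB8-position gene was at 92.9, 128, 160 and 132 CPM after Ad-PPARg and at 76.4, 186, 185 and 101 CPM after Ad-GFP. The PSMB9-position gene was at 79.7, 85.7, 122 and 94.4 CPM after Ad-PPARg and at 37.5, 136, 124 and 76.1 CPM after Ad-GFP. In both, the Ad-GFP libraries held the lowest and the highest level of all 8, and the Ad-PPARg libraries lay between.

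The log2 fold change in microglia was 0.46 (SE 0.25) for the TAP2-position gene and 0.43 (SE 0.25) for the TAP1-position gene. It was -0.11 (SE 0.27) for the PSMB8-position gene and 0.024 (SE 0.34) for the PSMB9-position gene. The median of the 4 was 0.23, beside 0.027 over all 13041 genes tested, and 3 of the 4 were positive, beside 53.6% of all. edgeR called 0 of the 4 genes and 0% of all genes at an adjusted p under 0.05, and at an unadjusted p under 0.05 again 0 of the 4, beside 11.4% of all genes; DESeq2 and limma voom called 121 and 1281 genes, none of them among the 4. Without Ad-GFP replicate 1 the transporter-position values were 0.28 (TAP2) and 0.25 (TAP1) and the proteasome-position values -0.30 (PSMB8) and -0.23 (PSMB9). Without Ad-GFP replicate 2 the proteasome-position values were 0.078 (PSMB8) and 0.27 (PSMB9). The sign of the PSMB9-position value was also negative without Ad-GFP replicate 4 (-0.040), without Ad-PPARg replicate 3 (-0.10) and with limma voom on all 8 libraries (-0.22), where the PSMB8-position value was -0.36. The PSMB8-position value was also positive without Ad-GFP replicate 3 (0.046), and 0.0015 with counts summed over the animals of a code. No direction is therefore given for these 2 genes in microglia.

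Relative to the TAP1-position gene, the PSMB8-position gene had 0.569, 0.932, 0.670 and 0.743 counts per count after Ad-PPARg and 1.00, 1.41, 1.25 and 0.597 after Ad-GFP. Replicates 1 to 3 of the 4 Ad-GFP libraries lay above all Ad-PPARg libraries, and replicate 4 lay among them.

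In OPC, all 4 genes had higher mean levels after Ad-PPARg. The TAP2-position gene was at 40.4, 41.5, 33.3 and 15.8 CPM after Ad-PPARg and at 16.7, 14.1, 15.5 and 24.8 CPM after Ad-GFP. Ad-PPARg replicates 1 to 3 lay above every Ad-GFP library and replicate 4, the library that stood apart, lay among them. The TAP1-position gene was at 67.8, 65.4, 53.7 and 35.4 CPM after Ad-PPARg and at 37.2, 33.6, 35.3 and 49.6 CPM after Ad-GFP, with the same 3 libraries above all controls.

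The PSMB8-position gene was at 7.03, 9.25, 4.77 and 5.28 CPM after Ad-PPARg, from 66 to 157 counts per library. It was at 3.87, 2.81, 3.23 and 4.15 CPM after Ad-GFP, from 32 to 72 counts. This was the only one of the 4 genes whose treatments did not overlap in OPC, a separation in this direction that 0.460% of the 13492 genes tested showed. Scaled within OPC alone, the share was 0.697% and the PSMB8-position gene was again the only member. The gap was narrow, between 4.77 CPM (69 counts) and 4.15 CPM (32 counts). Because the genes were picked with these libraries in view, nothing is read from these shares. The PSMB9-position gene was at 13.3, 13.96, 8.22 and 7.28 CPM after Ad-PPARg and at 6.45, 7.37, 5.24 and 7.14 CPM after Ad-GFP, with Ad-PPARg replicate 4 just under the highest control.

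The log2 fold change in OPC was 0.92 (SE 0.32) for the TAP2-position gene, 0.94 (SE 0.30) for the PSMB8-position gene, 0.54 (SE 0.23) for the TAP1-position gene and 0.73 (SE 0.28) for the PSMB9-position gene. Their median was 0.83, beside 0.032 over all genes tested, and all 4 were positive, beside 57.5% of all. At an adjusted p under 0.05 edgeR called 0 of the 4, and 0% of all genes. All 4 were among the genes that were higher at an unadjusted p under 0.05, which made up 0.763% of the 13492 tested; because the genes were picked with these libraries in view, nothing is read from that count. DESeq2 called 7 genes and limma voom 9, none of them among the 4. Without Ad-PPARg replicate 4 the log2 fold changes were 1.16 (TAP2), 1.04 (PSMB8), 0.71 (TAP1) and 0.89 (PSMB9), and still no member was called.

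**Figure D4:**
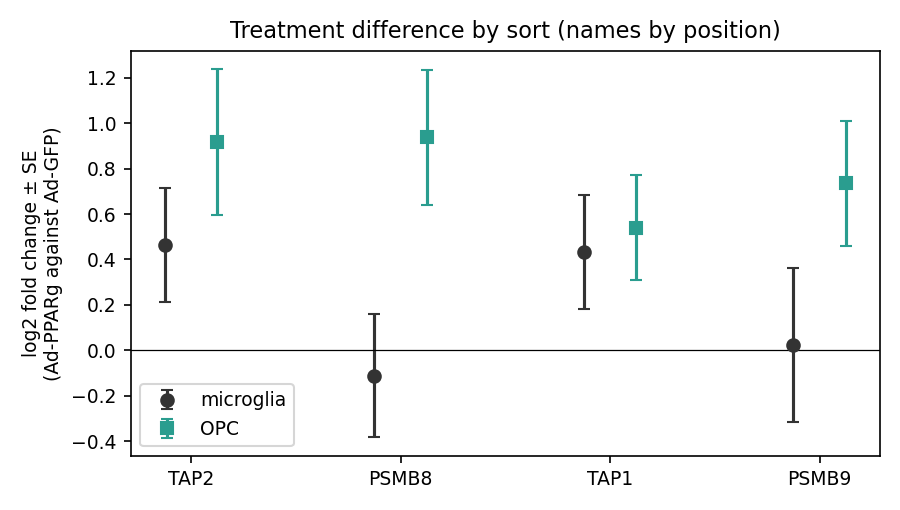
Log2 fold change of Ad-PPARg against Ad-GFP on the y axis, with SE as bars, for each gene on the x axis in microglia (circles) and OPC (squares). In OPC all 4 values lie above 0 (0.54 to 0.94), and in microglia only the transporter-position genes do so by more than 1 SE.

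The 3 high Ad-PPARg libraries of OPC come from animals under 2 codes, and replicate 4 from an animal under another. Counts were also summed over the animals of a code. CPM of these sums were scaled over the OPC sums alone, so they are not on the scale of the CPM above. The TAP2-position gene was at 48.6, 43.7 and 19.2 CPM in the 3 Ad-PPARg sums and at 18.3 and 21.7 CPM in the 2 Ad-GFP sums. The PSMB8-position gene was at 8.45, 8.32 and 6.42 CPM against 4.01 and 4.06 CPM. The SE of the log2 fold change then grew to 0.46 for the TAP2-position gene (fold change 0.89) and to 0.38 for the PSMB8-position gene (0.93).

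The relation of the 2 transporter-position genes also separated these OPC libraries. The TAP2-position gene had 0.596, 0.635 and 0.620 counts per count of the TAP1-position gene in Ad-PPARg replicates 1 to 3, and 0.445 in replicate 4. It had 0.447, 0.419, 0.441 and 0.50 after Ad-GFP. The 3 libraries with high levels thus also had the highest ratios among the OPC libraries. The highest microglia library, Ad-PPARg replicate 2 at 0.597, was level with OPC Ad-PPARg replicate 1.

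Microglial RNA in the OPC sort was gauged with 827 genes at least 16-fold higher in microglia, which were chosen on these libraries and from which the PSMB8-position gene was left out. Their summed level in the 8 OPC libraries was 1.65 to 2.96% of that in microglia. Its means were 2.19 ± 0.576% in the 4 Ad-PPARg libraries and 2.30 ± 0.392% in the 4 Ad-GFP libraries (SD), and a difference by treatment was not tested. The highest share, 2.96%, was that of Ad-PPARg replicate 2, the OPC library with the highest TAP2-, PSMB8- and PSMB9-position levels. The lowest, 1.65%, was that of Ad-PPARg replicate 1, which had the highest TAP1-position level. The transporter-position genes stood above that level, at 17.1 to 50.3% of their own microglial mean in the OPC libraries. The PSMB9-position gene stood at 5.55 to 14.8%. That these genes lie above it is largely fixed by choosing the microglia-enriched genes as at least 16-fold higher in microglia. How much of their level in OPC came from microglial RNA was not tested.

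The PSMB8-position gene was close to the level of the microglia-enriched genes in the control OPC libraries. It stood at 2.92, 2.12, 2.44 and 3.14% of its microglial mean after Ad-GFP, where the microglia-enriched genes stood at 1.93, 2.01, 2.74 and 2.51%. After Ad-PPARg it stood at 5.30, 6.98, 3.60 and 3.98%, beside 1.65, 2.96, 1.87 and 2.26% for the microglia-enriched genes. The ratio of the 2 was 0.890 to 1.51 in the Ad-GFP libraries and 1.76 to 3.20 in the Ad-PPARg libraries. That these ranges do not overlap restates the separation of the PSMB8-position CPM given above and is not a second result. How many of all genes separate in such a ratio was not computed. The choice of at least 16-fold keeps the microglia-enriched genes at or below about 6.25% by construction, so their level is a description of these sorts.

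**Figure D5:**
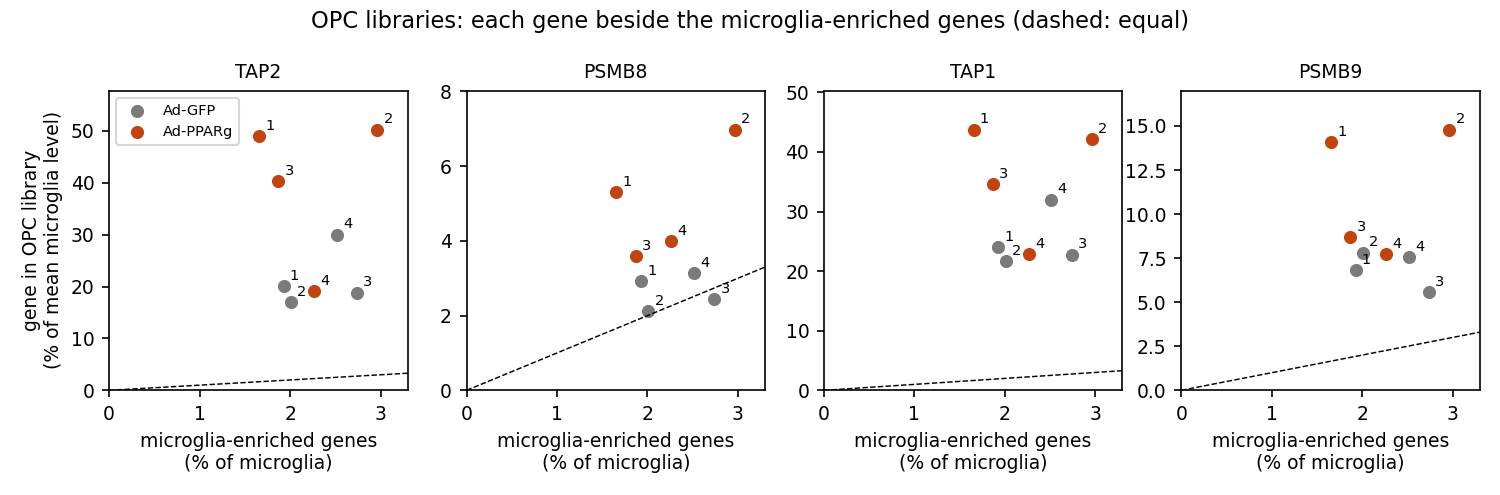
Level of each gene in the 8 OPC libraries as a percentage of its mean in microglia (y axis, linear, own range per panel) against the summed level of the 827 microglia-enriched genes on the same scale (x axis), with replicate numbers; the dashed line marks equal percentages. The PSMB8-position gene lies near the line after Ad-GFP (ratio 0.890 to 1.51) and above it after Ad-PPARg (1.76 to 3.20), which restates the separation of its CPM. The other 3 genes lie above it throughout, which the choice of the microglia-enriched genes largely fixes.

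The treatment difference in OPC minus that in microglia, from 1 fit of all 16 libraries, was 1.02 (SE 0.41) on the log2 scale for the PSMB8-position gene and 0.68 (SE 0.46) for the PSMB9-position gene. It was 0.41 (SE 0.42) for the TAP2-position gene and 0.070 (SE 0.36) for the TAP1-position gene. edgeR called 0 of the 4, and 0% of the 14699 genes tested; 1 of the 4, the PSMB8-position gene, had an unadjusted p under 0.05, as did 2.73% of all genes. Without microglia Ad-GFP replicate 4 the value of the TAP1-position gene was -0.071, and without microglia Ad-GFP replicate 2 that of the PSMB9-position gene was 0.44. In the 6 animals with both sorts, with the animal as a block, the values were 1.32 (PSMB8), 0.97 (PSMB9), 0.81 (TAP2) and 0.35 (TAP1), and 0 of the 4 were called. Without the block, a setting that was not planned, the same 6 animals gave 1.34 (PSMB8), 1.01 (PSMB9), 0.76 (TAP2) and 0.33 (TAP1). The values thus changed little with the block itself. These 6 animals exclude microglia Ad-GFP replicate 1 and Ad-PPARg replicate 2. They also exclude OPC Ad-PPARg replicate 4 and Ad-GFP replicate 3. Without 1 of these libraries alone, in that order, the TAP2-position value was 0.59, 0.34, 0.69 and 0.35. The part of each library in the change was not tested further. DESeq2 called 2 genes and limma voom 4, none of them among the 4.

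The 6 animals with both sorts set the levels side by side. The TAP1-position gene was at 163, 238 and 177 CPM in microglia and at 67.8, 65.4 and 53.7 CPM in OPC of the same 3 Ad-PPARg animals, and at 132, 148 and 168 CPM and 37.2, 33.6 and 49.6 CPM in the 3 Ad-GFP animals. Its microglial level was 2.41 to 4.40 times the OPC level in these 6 animals, and that of the PSMB8-position gene was 13.2 to 65.8 times. The widest ratios of the PSMB8-position gene, 48.2 and 65.8, were those of the 2 control animals with the highest microglial levels. Across the 6 animals, levels in the sorts had a Pearson r of 0.73 (Spearman rho 0.60) for the TAP1-position gene and 0.70 (rho 0.71) for the TAP2-position gene. The r was -0.35 (rho -0.54) for the PSMB8-position gene and -0.19 (rho -0.26) for the PSMB9-position gene. Animals of the 2 treatments are pooled in these values, which are descriptions.

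The 10 annotated genes around the block, 5 on each side, were taken by position. In microglia 2 of the 10 had a positive log2 fold change after Ad-PPARg, beside 53.6% of all genes tested, with a median of -0.36, and 0 were called. The 3 most abundant, all on the side of the TAP2-position gene, averaged 750 to 989 CPM in microglia. In OPC 6 of the 10 passed the filter on low counts, all 6 with a positive log2 fold change, beside 57.5% of all genes tested, and a median of 0.32, and 0 were called or had an unadjusted p under 0.05. Between the sorts 9 of the 10 were called lower in OPC, beside 33.4% of all genes tested, with a median log2 difference of -4.85 over the 10. The exception, ENSOCUG00000003097 (plus strand, 131 CPM in microglia and 127 CPM in OPC), was the third gene beyond the PSMB9-position gene.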

How the data were processed

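Total RNA of the sorted cells was sequenced from both ends on a HiSeq, per the labels' protocols. Tools listed in the submitters' processing notes are bcl2fastq 2.17, STAR 2.5.2b and Subread 1.5.2, with no role stated. Each deposited file holds the raw counts of reads per gene of 1 library. Build, annotation release, strand setting and the handling of multi-mapping reads: not given in the sources used here. Reads shared between overlapping or similar genes may have been split or lost.

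Counts were analysed with edgeR 4.0.16 (R 4.3.3): TMM scaling, filterByExpr at its defaults to drop low counts, robust quasi-likelihood fits and Benjamini-Hochberg adjustment over all genes tested. Each SE is the absolute log2 fold change over the root of the F statistic. Treatment was fitted within each sort (8 libraries); the sorts, and the difference of effects, in all 16. Correlations used log2 CPM with a prior count of 2, scaled within the sort. DESeq2 1.42.0 and limma 3.58.1 (voom with sample quality weights, which weight each library) served as alternatives. The fits were tested on simulated data. No library repeated another: chi-square per gene was 6.76 to 234 over the 24 same-group pairs, against about 1 for counting noise. Libraries of a group come from different animals.

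The members, the lists and the tests were chosen with earlier results of these data known. Genes beyond the 4 were named by position (5 on each side) or by likeness (the 4 highest r in microglia). The lists of pathway genes and cell type markers could not be used, since 0 identifiers matched the reference table. The PPARg transgene was not examined for the same reason. The animal identifiers pair the sorts in 6 animals, in which the sorts' deviations from their group means had r of 0.0945 to 0.286 over 12413 genes. Sequences of the 4 genes were not used here. Whether co-variation served in choosing the genes is not recorded, so correlations carry no p.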

Additional observations from a re-analysis of the deposited data

Results flagged for a closer look

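The TAP2-position gene was at 133 CPM in microglia Ad-PPARg replicate 3, apart from the other 3 libraries of its group at 81.9 to 87.2 CPM. Its gap to the nearest was 0.897 of the range of the group. The same library was the highest for the TAP1-position gene.

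In OPC Ad-GFP replicate 2 the PSMB9-position gene had 2.63 counts per count of the PSMB8-position gene, where the other 3 libraries of the group had 1.62 to 1.72; the gap was 0.903 of the range. The ratio rests on 43 counts of the PSMB8-position gene. These are 2 of 32 groups of 4 examined, and chance alone flags about 1 in 20.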

How the results depend on the processing

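Leaving out each library in turn, the median log2 difference of the 4 genes was 0.0073 to 0.35 in microglia, 0.65 to 0.96 in OPC, 0.40 to 0.78 for the difference of effects and -2.73 to -2.54 between the sorts. With limma voom, fitted with sample quality weights, the microglia median was 0.061, against 0.23 in the reported fit. The PSMB9-position value turned to -0.22, and the cause was not tested. Under the other settings on all libraries, the medians were 0.22 to 0.28 in microglia, 0.71 to 0.84 in OPC, 0.52 to 0.63 for the difference of effects and -2.74 to -2.42 between the sorts. The number of genes called with edgeR was 0 in both treatment comparisons and the difference of effects. It was 4 without a filter on low counts, 121 with DESeq2 and 1281 with limma voom in microglia; 7 with DESeq2 and 9 with limma voom in OPC; and 2 and 4 for the difference of effects. Without single libraries it was 0 to 4 in microglia, 0 to 2 in OPC, 0 to 1 for the difference and 9718 to 10549 between the sorts. None of the 4 genes was among the treatment calls of any of these fits, and all 4 were called between the sorts in each; the cause of the differing counts was not tested. With the animal as a replicate block in the 6 animals with both sorts, the median was -2.69 between the sorts and 0.89 for the difference of effects. The block changed no call of a member. Without it, the same 6 animals also had a median of 0.89 for the difference of effects. Upper-quartile scaling moved the median of all genes between the sorts to 0.19 and that of the 4 genes to -2.42. With totals not adjusted by TMM, 3 group means of CPM moved by at least their SD and 13 by less. The TAP1-position gene then overlapped between the sorts. On the scale of each sort's own fit, the PSMB8-position gene again was the only one that did not overlap between treatments in OPC, a setting added after the data were seen. The PSMB8-position gene in OPC rests on 32 to 157 counts per library, which limits its ratios most.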
